A study of Mus musculus with 8 samples.

Results

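Eotaxins are chemokines that draw eosinophils out of the blood into tissue, and the 10 genes described here are the parts of that system: the eotaxins Ccl11 and Ccl24, their receptor Ccr3, the eosinophil markers Siglecf, Epx and Prg2, the interleukin-5 receptor chain Il5ra, the type 2 cytokines Il5 and Il13, and the alarmin Il33. They were taken by name from 19938 genes measured on 8 arrays, and each of the 10 was represented by the only probe set that the platform annotation paired with its symbol alone. The arrays held RNA of mammary glands from virgin female mice of a C57BL/6 X FVB background, 5 weeks old, and the comparison asks what a deficiency of Sox9 does to the gland at that age. In 4 mice, with the genotype MMTV-Cre;Sox9 flox/flox, both copies of Sox9 carried recombination sites. The 4 controls, MMTV-Cre;Sox9 +/flox (flox/+ below), had a single floxed copy beside a wild-type copy, so that Cre was present in both genotypes. MMTV-Cre uses the control region of a mammary tumour virus of mice and acts in mammary epithelium, though not necessarily there alone. The RNA came from the whole part of the fourth gland near its lymph nodes, with fat, stroma and immune cells included. Whether Cre also acted in those cells was not tested, and the labels do not say in which share of cells Sox9 was recombined. An Affymetrix Gene 1.0 ST array was used per gland, and with 4 arrays per genotype their number limits how precise a difference can be.

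Eosinophils enter the mammary gland at puberty, when ducts grow out from terminal end buds, and are known there as companions of the growing ends. CCL11 and CCL24 are made by stromal cells and macrophages and act through CCR3, the receptor that eosinophils carry in abundance and that mast cells and basophils can carry as well. Interleukin-5 drives the formation and survival of eosinophils through the receptor chain encoded by Il5ra, interleukin-13 makes stromal cells release eotaxins through the transcription factor STAT6, and interleukin-33, released from damaged or stretched stromal and lining cells, stimulates the innate lymphocytes that secrete both.

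The eotaxins and their receptor were the members with the highest positive differences, and the granule genes Epx and Prg2 showed none of that size. Ccl11 read 1.55-fold, Ccl24 1.47-fold and Ccr3 1.58-fold higher in flox/flox than in flox/+ glands, while Il33 read lower, at 68.6% of the control level. For Siglecf, Epx, Prg2, Il5, Il5ra and Il13 the differences lay between -0.17 and 0.15 on the log2 scale. Epx, Prg2, Il5 and Il5ra, like Ccr3, were among the lowest 1 in 3 genes by mean level. Their small differences therefore do not show that the transcripts of Epx, Prg2, Il5 and Il5ra were unchanged. In limma's test with Benjamini-Hochberg adjustment over all 19938 genes, 0 of the 10 members had an adjusted p under 0.05, against 8 genes or 0.0401% of all genes. At an unadjusted p under 0.05 there were 4 members, 3 higher and 1 lower, where 10.3% of all genes passed in either direction, 4.8% as higher and 5.46% as lower. Values did not overlap between the genotypes for 2 members, both higher in flox/flox, where 5.89% of all genes had no overlap, 2.73% with flox/flox higher and 3.16% with flox/flox lower. Of the 10 differences 7 were positive, with a median of 0.14, beside 47.4% positive and a median of -0.01 over all genes. Because no member passed after adjustment, the members are given below by their values. The exact permutation p of each stands for that gene alone, without adjustment. It does not allow for the members having been chosen with earlier results of these data known. Intensities are on a linear scale after quantile normalization of log2 values with an offset of 16, and folds keep that offset, which makes them smaller for dim genes.

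**Figure D1:**
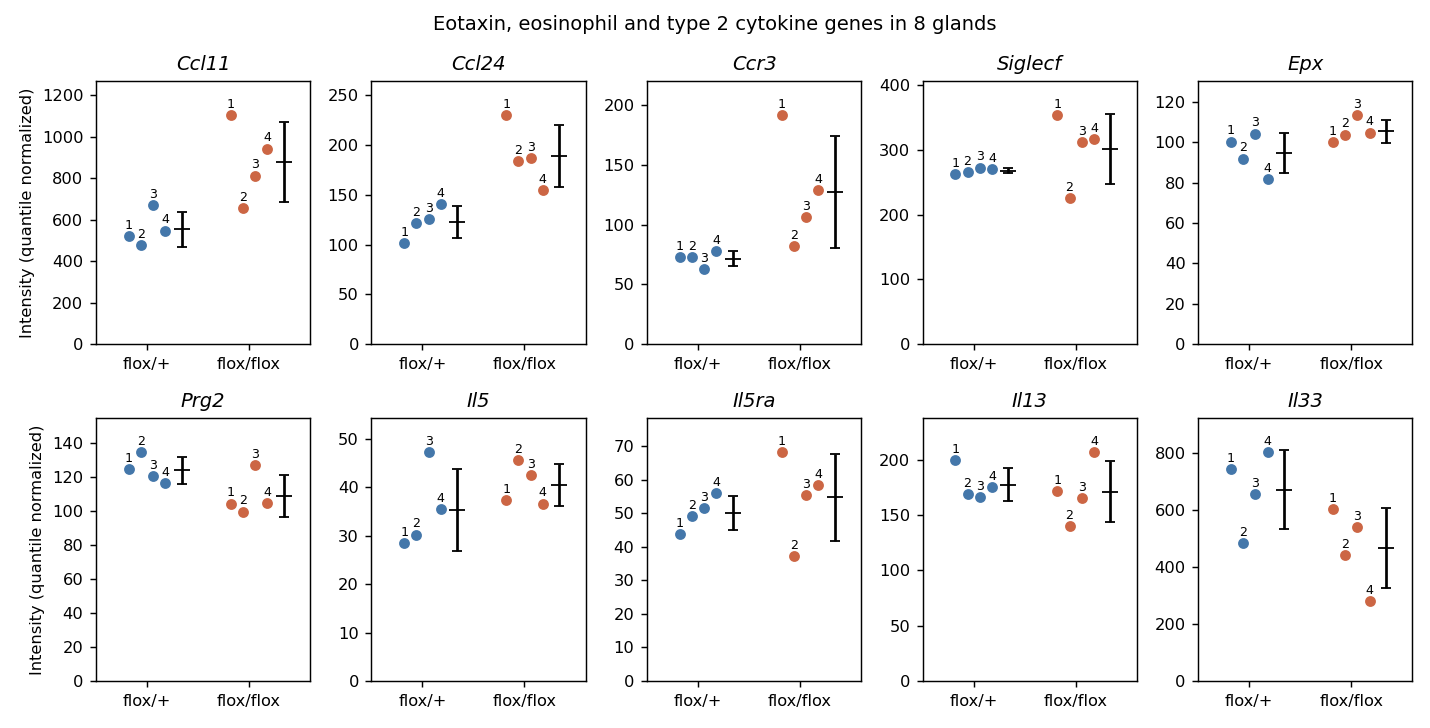
Intensity of each of the 10 genes in every gland (points, numbered by replicate), with mean and SD of the 4 glands of a genotype beside them; each panel starts at 0. The genotypes are apart for Ccl24 and Ccr3 and overlap for the other genes. For Ccl11 they overlap because flox/flox replicate 2, at 654, is below flox/+ replicate 3, at 670.

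Ccl11 encodes eotaxin-1, and its probe set read 519, 477, 670 and 547 in flox/+ replicates 1 to 4 and 1102, 654, 812 and 942 in flox/flox replicates 1 to 4. Only flox/flox replicate 2 fell inside the control range, just under flox/+ replicate 3. The means were 553 ± 83.0 and 878 ± 191 (SD, n = 4 per genotype). The log2 difference was 0.64 ± 0.15 (SE, 95% interval 0.30 to 0.97). A 2-sided exact permutation test over the 70 assignments of the arrays gave p = 0.0571, and limma gave p = 0.00153 and an adjusted p of 0.197, the 153rd smallest p of all genes. The difference was 0.52 without flox/flox replicate 1 and 0.77 without flox/flox replicate 2, the lowest and highest of the values with 1 array left out.

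Ccl24, eotaxin-2, read 102, 122, 126 and 140 in the control glands and 230, 184, 187 and 155 in the flox/flox glands. Every flox/flox gland lay above every control, although flox/flox replicate 4 exceeded flox/+ replicate 4 by little. With means of 122 ± 16.01 and 189 ± 30.9 (SD, n = 4) the log2 difference was 0.56 ± 0.12 (SE, 95% interval 0.30 to 0.82). The exact permutation p was 0.0286, the smallest that 4 against 4 arrays allow, and limma's p of 0.0006 was the 79th smallest and became 0.152 after adjustment. This was the smallest limma p among the 10 members, smaller than that of Ccl11, whose values were more spread within each genotype.

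Genes beside the eotaxins on their chromosomes served as a local comparison. Ccl11 lies in a cluster of chemokine genes on chromosome 11. Among the 3 measured genes on each side of it 0 had an unadjusted limma p under 0.05, beside 10.3% of all genes. With 6 genes a count of 0 lies near that share. The monocyte chemokines Ccl2, Ccl7 and Ccl12 had log2 differences of -0.03, -0.01 and 0.03, and Ccl1 had -0.03. Ccl8, a chemokine of the same cluster whose human counterpart binds CCR3, read 135, 145, 336 and 257 in control and 433, 207, 366 and 274 in flox/flox glands. Its values overlapped, with a difference of 0.56 ± 0.28 (SE), as large as that of Ccl24 but with a wider interval of -0.06 to 1.19. On chromosome 5 the neighbour of Ccl24 is Ccl26, whose human counterpart is an eotaxin, which had a difference of 0.12. Its mean was 94.3 ± 9.48 (SD, n = 4) in the controls and 103 ± 5.13 in the flox/flox glands. Around the other members the counts at that p were 0 of 6 for Ccl24, Epx, Il13, Il5 and Il5ra. They were 1 of 4 for Ccr3, 1 of 6 for Il33 and 2 of 6 each for Prg2 and Siglecf.

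Ccr3, the eotaxin receptor, was near-constant in the controls at 72.8, 72.6, 62.7 and 77.6 and spread widely in the flox/flox glands at 191, 82.2, 106 and 129. The genotypes did not overlap, but flox/flox replicate 2 lay only just above the highest control. The means were 71.4 ± 6.23 and 127 ± 46.9 (SD, n = 4), so the SD was 8.72% of the mean in controls and 36.8% in flox/flox glands. The log2 difference was 0.66 ± 0.18 (SE, 95% interval 0.25 to 1.06), with an exact permutation p of 0.0286 and a limma p of 0.00443, which became 0.257 after adjustment. Without flox/flox replicate 1 the difference was 0.46 and without flox/flox replicate 2 it was 0.82. On chromosome 9 the neighbouring receptor genes Ccr1, Ccr1l1 and Ccr2 had differences of 0.14, -0.06 and 0.26, none at an unadjusted limma p under 0.05. The fourth measured neighbour, the dendritic cell receptor gene Xcr1, had 0.23 ± 0.10 (SE), the only neighbour of Ccr3 at that level.

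Siglecf, which encodes the surface lectin by which mouse eosinophils are usually sorted, read 263, 266, 273 and 271 in the controls and 354, 226, 312 and 317 in the flox/flox glands. Of the flox/flox glands 3 were above all controls and replicate 2 was below all of them. The mean was 302 ± 54.0 against 268 ± 4.34 (SD, n = 4), a log2 difference of 0.15 ± 0.11 (SE, 95% interval -0.10 to 0.40; exact permutation p = 0.371). The SD was 1.62% of the mean in the controls and 17.9% in the flox/flox glands. The difference was 0.07 without flox/flox replicate 1 and 0.27 without flox/flox replicate 2, with adjusted limma p values of 0.890 and 0.313. Of the measured neighbours of Siglecf on chromosome 7, Zfp975 had -0.36 ± 0.08 and Zfp715 0.27 ± 0.10 (SE). Both were at an unadjusted limma p under 0.05.

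Il5ra had the same order of flox/flox glands as Siglecf, but another order of controls, with 43.8, 49.0, 51.5 and 56.0 in the controls and 68.2, 37.1, 55.3 and 58.3 in the flox/flox glands. Replicates 1 and 4 of flox/flox were above all controls and replicate 2 below all of them. The log2 difference was 0.08 ± 0.13 (SE, 95% interval -0.20 to 0.36; exact permutation p = 0.6), and it was -0.0089 without flox/flox replicate 1 and 0.21 without flox/flox replicate 2.

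In the flox/flox glands Ccl11, Ccr3, Siglecf and Il5ra thus shared the order replicate 1, 4, 3, 2 from high to low, which 840 or 4.21% of all genes had. The ratio of the highest to the lowest flox/flox gland was 2.33 for Ccr3, 1.84 for Il5ra, 1.69 for Ccl11 and 1.56 for Siglecf. Flox/flox replicate 2 was the lowest flox/flox gland for 6 of the 10 members, and replicate 1 the highest for 6. The shares of all genes with these extremes were not computed. The extremes were not particular to the members. Summed basophil, neutrophil and macrophage markers, given below, were also lowest in flox/flox replicate 2 and highest in replicate 1. In the other marker lists the lowest gland, the highest gland or both were other replicates. These orders are a description of 4 glands, and in bulk tissue fewer cells of a type and less RNA per cell cannot be told apart.

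RefSeq promoter windows in GRCm38.p6, from 250 bases before to 50 bases after an annotated start site, were at hand for 7 of the 10 members (8 windows, 2 of them for Il33), and those of the eosinophil surface genes that shared this order are shown. They are chr9:124021721-124022020 on the plus strand for Ccr3, chr7:43351091-43351390 on the plus strand for Siglecf and chr6:106748988-106749287 on the minus strand for Il5ra, each written 5′ to 3′ in the direction of the gene. The start site of the Ccr3 window lies 4146 bases inside the gene as the RefSeq gene table bounds it, and that of the second Il33 window 20677 bases inside, whereas the start sites of the other 6 windows are the outer ends of their genes. Capitals mark the letters GATAA, the core that GATA factors bind, among them GATA1, on which the eosinophil lineage depends.
Ccr3: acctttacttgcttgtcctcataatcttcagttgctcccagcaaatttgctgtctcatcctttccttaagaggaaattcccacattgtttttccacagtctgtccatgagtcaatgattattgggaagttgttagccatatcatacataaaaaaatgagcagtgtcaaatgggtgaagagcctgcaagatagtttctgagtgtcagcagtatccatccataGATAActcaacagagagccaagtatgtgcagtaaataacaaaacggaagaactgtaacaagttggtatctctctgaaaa
Siglecf: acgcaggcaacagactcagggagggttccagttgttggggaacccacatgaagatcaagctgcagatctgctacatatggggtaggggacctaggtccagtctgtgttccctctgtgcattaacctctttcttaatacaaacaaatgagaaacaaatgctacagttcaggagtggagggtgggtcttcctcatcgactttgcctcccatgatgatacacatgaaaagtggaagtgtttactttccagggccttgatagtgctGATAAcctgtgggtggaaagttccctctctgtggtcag
Il5ra: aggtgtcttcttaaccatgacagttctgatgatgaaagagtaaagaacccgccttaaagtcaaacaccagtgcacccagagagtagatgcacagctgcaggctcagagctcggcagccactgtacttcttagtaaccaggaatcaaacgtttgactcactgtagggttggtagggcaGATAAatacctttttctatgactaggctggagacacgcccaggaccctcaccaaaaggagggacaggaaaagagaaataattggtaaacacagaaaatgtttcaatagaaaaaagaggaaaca

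Each of these windows held GATAA once, starting at base 222 in Ccr3, base 263 in Siglecf and base 178 in Il5ra, counted from 1 at the 5′ end. In Siglecf that base lies after the start site. Searched on both strands, GATAA stood in 5 of the 8 member windows and in 25.4% of all 32817 promoter windows of the same length; this motif was chosen after the values were seen. The letters TTC and GAA with 4 bases between them, the spacing that STAT6 prefers, stood in 3 of the 8 windows (Epx, Il33 and Il5ra) and in 6.94% of all windows. In Il5ra that match began at base 278, after the start site. With 3 bases between them, the spacing of other STAT factors, they stood in 0 of the 8 and in 8.29% of all windows. TATAAA stood in 4 of the 8 windows, those of Epx, Il13 and both of Il33, and in 13.6% of all windows. GGGA and TTTCC with 1 base between them, a form of the NF-kB site, stood in 1 window, that of Ccr3, and in 0.411% of all windows. A match of letters is a description of the window and does not show that a factor binds there.

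For the granule genes Epx and Prg2 the genotypes overlapped. Epx, the eosinophil peroxidase, read 100.3, 92.0, 104 and 81.9 in the controls and 100.1, 104, 113 and 105 in the flox/flox glands. Its log2 difference was 0.14 ± 0.08 (SE, 95% interval -0.03 to 0.31; exact permutation p = 0.143). Prg2, the major basic protein of the granule core, read 125, 135, 120 and 116 in the controls and 104, 99.6, 127 and 105 in the flox/flox glands. Here 3 flox/flox glands were below all controls and replicate 3 was within the control range. The log2 difference was -0.17 ± 0.08 (SE, 95% interval -0.35 to 0.01; exact permutation p = 0.114), opposite in sign to that of Ccr3. Prg3, the close relative of Prg2 beside it on chromosome 2, read 76.0 in flox/+ and 69.5 in flox/flox glands on average, with a difference of -0.13 ± 0.14 (SE). Of the other measured neighbours of Prg2, Slc43a1 had -0.36 ± 0.12 and Slc43a3 0.43 ± 0.13 (SE). Both were at an unadjusted limma p under 0.05.

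Rnase2a, of the eosinophil-associated ribonuclease family, differed far more than any member. It read 7.59, 6.08, 3.95 and 3.01 in the controls and 1028, 98.3, 1136 and 931 in the flox/flox glands, with flox/flox replicate 2 again the lowest (limma adjusted p = 0.031). Its deposited control values, 1.54 to 7.44, lay under the level that 10% of probe sets did not reach, 34.4 to 43.8 depending on the array. Background and signal cannot be told apart there, so the size of this difference is uncertain.

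Among the cytokines, Il5 read 28.5, 30.3, 47.3 and 35.6 in control and 37.4, 45.7, 42.5 and 36.6 in flox/flox glands. The deposited values of Il5 lay between 28.8 and 47.2, and those of 10% of probe sets lay under 34.4 to 43.8 depending on the array, so its readings were at the dim end of the arrays, where background and signal cannot be told apart without detection calls. The log2 difference was 0.15 ± 0.11 (SE, 95% interval -0.09 to 0.39). Il13 read 199.8, 169, 166 and 176 in control and 172, 140, 166 and 207 in flox/flox glands, again with overlap. Its log2 difference was -0.06 ± 0.11 (SE, 95% interval -0.29 to 0.17) and changed sign to 0.03 without flox/flox replicate 2. Il4, which lies beside Il13 on chromosome 11 and signals through a shared receptor, had a difference of 0.14 ± 0.09 (SE), and Rad50, which lies between Il13 and Il5, read 326 on average in flox/flox glands with a limma p of 0.832.

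Il33 was the only member with a negative difference at an unadjusted limma p under 0.05. It read 742, 482, 655 and 802 in the controls and 601, 439, 538 and 279 in the flox/flox glands. Flox/flox replicates 2 and 4 were below all controls, whereas replicates 1 and 3 were above flox/+ replicate 2. The means were 670 ± 139 and 464 ± 140 (SD, n = 4), which left a log2 difference of -0.54 ± 0.22 (SE, 95% interval -1.03 to -0.06). The exact permutation p was 0.114, and limma's p of 0.0309 became 0.441 after adjustment. The difference was -0.33 without flox/flox replicate 4 and -0.69 without flox/+ replicate 2. Flox/+ replicate 2 was also the gland with the most B cell transcript, given below.

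**Figure D2:**
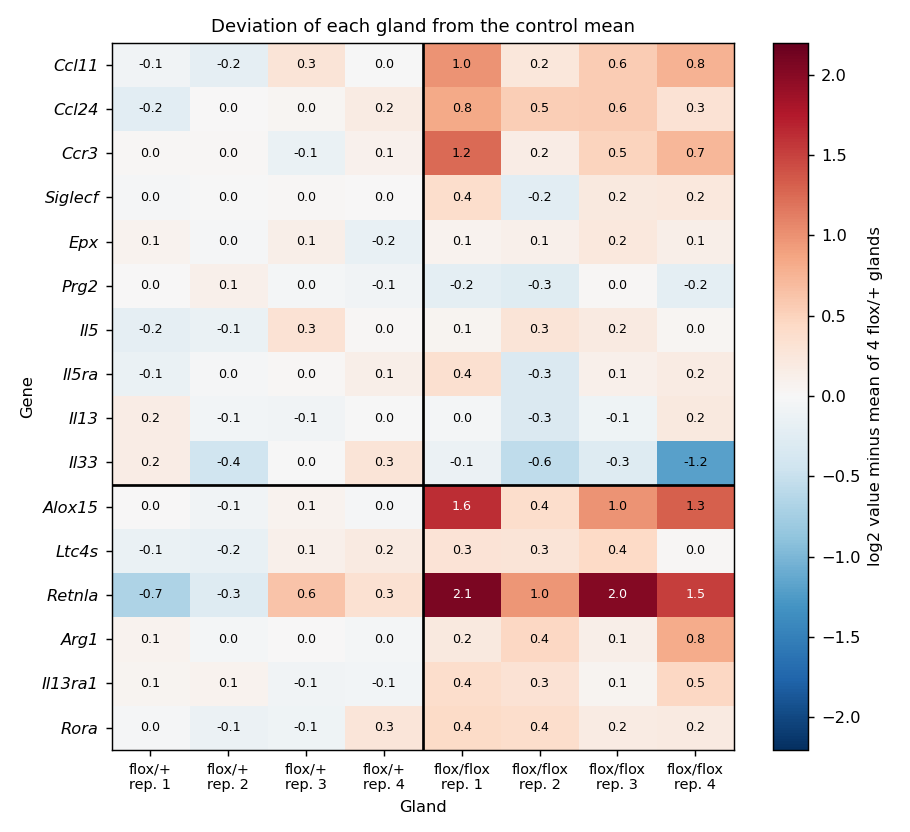
Log2 value of each gene in each gland minus the mean of the 4 flox/+ glands, as colour and as printed number, for the 10 genes (above the line) and the 6 companion genes with an unadjusted limma p under 0.05 (below it). Ccl11, Ccl24, Ccr3, Epx, Il5 and the 6 companion genes are above the control mean in all 4 flox/flox glands, and Il33 is below it in all 4. The 6 companion genes were selected by their p in these same values, which favours glands on the same side of the control mean.

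Companion genes of the same biology were looked up from 6 lists, 40 genes in all, of which 39 were analysed. At an unadjusted limma p under 0.05, 6 of the 39 were higher and 0 lower, with 0 past the adjusted threshold, beside 4.8% and 5.46% of all genes at the unadjusted level. The median difference was 0.01, and 21 of the 39 were positive. The values of 3 companions did not overlap between the genotypes, each with flox/flox higher, beside 5.89% of all genes without overlap and 2.73% with flox/flox higher.

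The highest of these were Retnla and Alox15. Retnla, a secreted protein that interleukin-4 and interleukin-13 induce in macrophages, read 865, 1140, 2177 and 1762 in the controls and 5899, 2750, 5732 and 4055 in the flox/flox glands. No flox/flox gland was as low as the highest control. The log2 difference was 1.65 ± 0.30 (SE, 95% interval 0.99 to 2.31), with an exact permutation p of 0.0286 and a limma adjusted p of 0.106. Alox15, the lipoxygenase of eosinophils and resident macrophages, read 245, 230, 258 and 239 in the controls and 782, 323, 496 and 625 in the flox/flox glands. The controls were close to each other, and the flox/flox glands stood in the order 1, 4, 3, 2, as for Ccr3 and Ccl11. The difference was 1.08 ± 0.21 (SE, 95% interval 0.62 to 1.53; limma adjusted p = 0.122). Arg1, the arginase of alternatively activated macrophages, read 115 to 126 in control and 132 to 222 in flox/flox glands, a difference of 0.40 ± 0.13 (SE), with the highest value in flox/flox replicate 4.

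The other companions at this level overlapped between the genotypes. Il13ra1, a chain of the receptor for interleukin-13, had a difference of 0.31 ± 0.09 (SE; exact permutation p = 0.0571), and Ltc4s, the enzyme that makes leukotriene C4 in eosinophils and mast cells, had 0.26 ± 0.11 (exact permutation p = 0.114). Rora, a transcription factor of group 2 innate lymphoid cells that many stromal cells also express, had 0.30 ± 0.10 (exact permutation p = 0.0857). By list, the unadjusted count was 0 of 4 for other CCR3 ligands, 0 of 6 for other type 2 cytokines and alarmins, 1 of 9 for receptors and signal transducers, 2 of 6 for other eosinophil genes, 2 of 7 for targets of interleukin-4 and interleukin-13 and 1 of 7 for group 2 innate lymphoid cell genes, each of them higher. Where no gene of a list passed, the smallest p was that of Ccl28 among the CCR3 ligands (-0.18 ± 0.08 SE) and that of Il25 among the cytokines (0.14 ± 0.08). The lineage factors Gata1 and Cebpe had differences of -0.01 and -0.13, the interleukin-4 receptor chain Il4ra -0.02, Stat6 0.01 and the target chemokines Ccl17 and Ccl22 0.01 and 0.04.

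**Figure D3:**
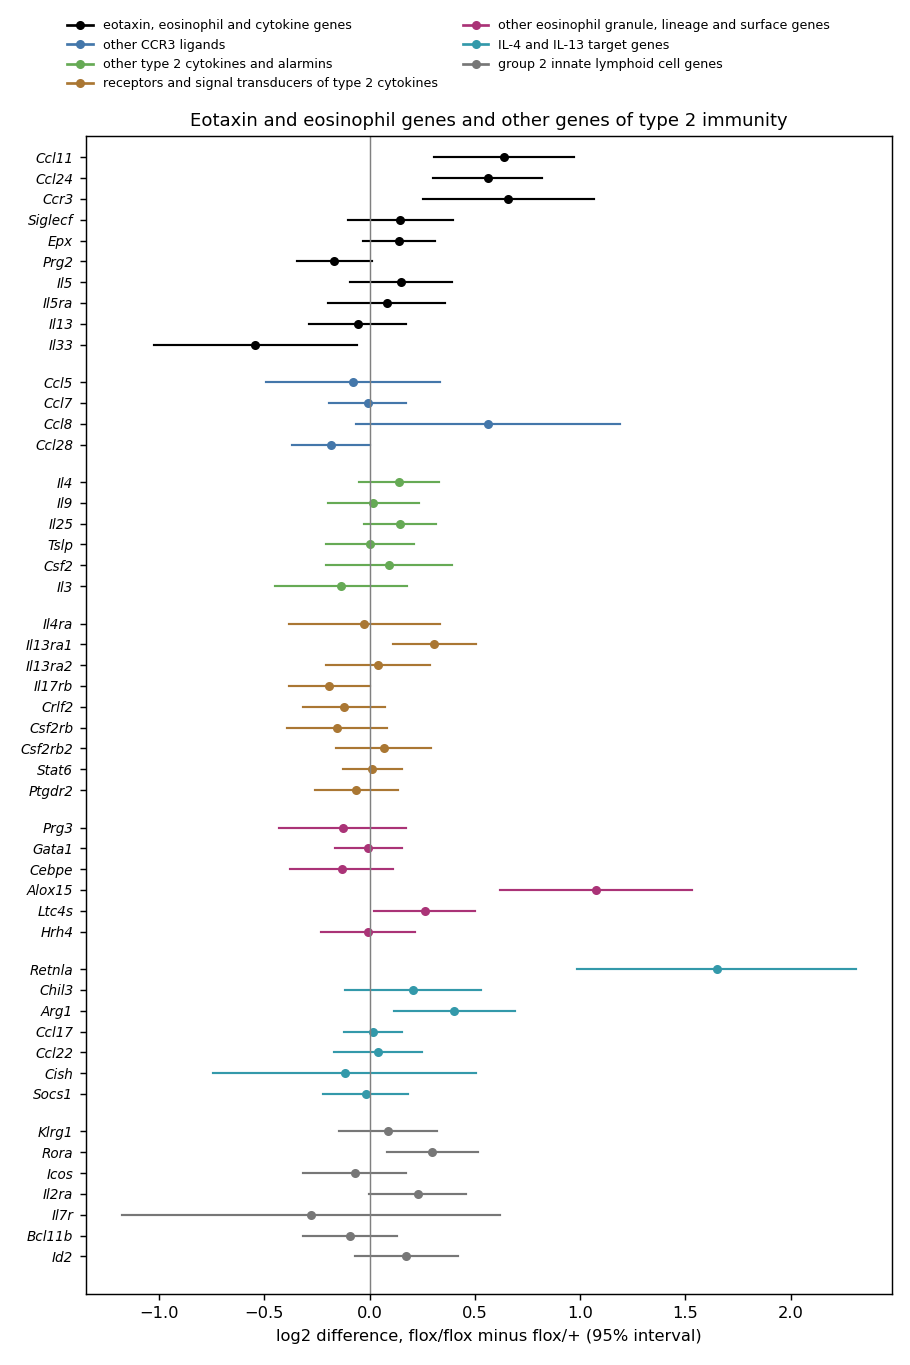
Log2 difference (flox/flox minus flox/+, 4 glands each) with its 95% interval from limma for the 10 genes and for the 39 companion genes, coloured by list; the vertical line marks 0. The intervals of Ccl11, Ccl24, Ccr3, Alox15, Retnla, Arg1, Il13ra1, Ltc4s and Rora lie above 0 and that of Il33 below it, none of them adjusted for the number of genes.

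Cell type markers were compared because CCR3 and type 2 cytokines belong to several cell types. The tissue's epithelium was present in every gland, with Krt8 between 2289 and 2951 and Krt14 between 555 and 820, and 0 markers of these lists read 0 in any gland. Mast cell markers, 9 measured, summed to 2414 to 2865 in control and 2545 to 3343 in flox/flox glands, and 8 of the 9 differences were positive, 4 of them at an unadjusted limma p under 0.05, beside 47.4% positive and 4.8% higher at that level over all genes. Fcer1a, which encodes part of the IgE receptor of mast cells and basophils, read 47.1, 50.5, 49.5 and 46.9 in the controls and 84.4, 117, 64.7 and 92.9 in the flox/flox glands, with no overlap. The order of the flox/flox glands differed among mast cell genes. Fcer1a was highest in replicate 2, where Ccr3 was lowest. The tryptase Tpsb2 and the carboxypeptidase Cpa3, at 319 and 608, were highest in replicate 1, where Ccr3 was highest too. The sum of the list was 3343, 3262, 2545 and 3205 in flox/flox replicates 1 to 4. Its highest gland was thus also highest in Ccr3, but its second highest was lowest in Ccr3. The part of mast cells in the difference of Ccr3 was not tested. Basophil markers, 3 measured, summed to 227 to 283 in control and 250 to 282 in flox/flox glands, and Mcpt8 had a difference of 0.05.

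Markers of the cells that surround the ducts are given beside the eotaxins. The 9 fibroblast markers summed to 36524 to 46761 in control and 33320 to 39326 in flox/flox glands, with the lowest sum in flox/flox replicate 2, and 3 of them were lower and 0 higher at an unadjusted limma p under 0.05, a level at which 5.46% of all genes were lower. The 8 macrophage markers summed to 4568 to 7484 in control and 5087 to 7021 in flox/flox glands, with 0 at that level. The 7 neutrophil markers summed to 696 to 801 and 696 to 844, with 1 higher, Retnlg. The 7 B cell markers summed to 3848 in flox/+ replicate 2, between 655 and 711 in the other controls and between 631 and 744 in the flox/flox glands, and the 6 T cell markers were highest in the same control at 1276. White adipocyte, luminal, basal and vascular markers had 0 members at that level in either direction. The part of these cell types in the members' differences was not tested. With the B cell score as a covariate 4 members again had an unadjusted p under 0.05.

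**Figure D4:**
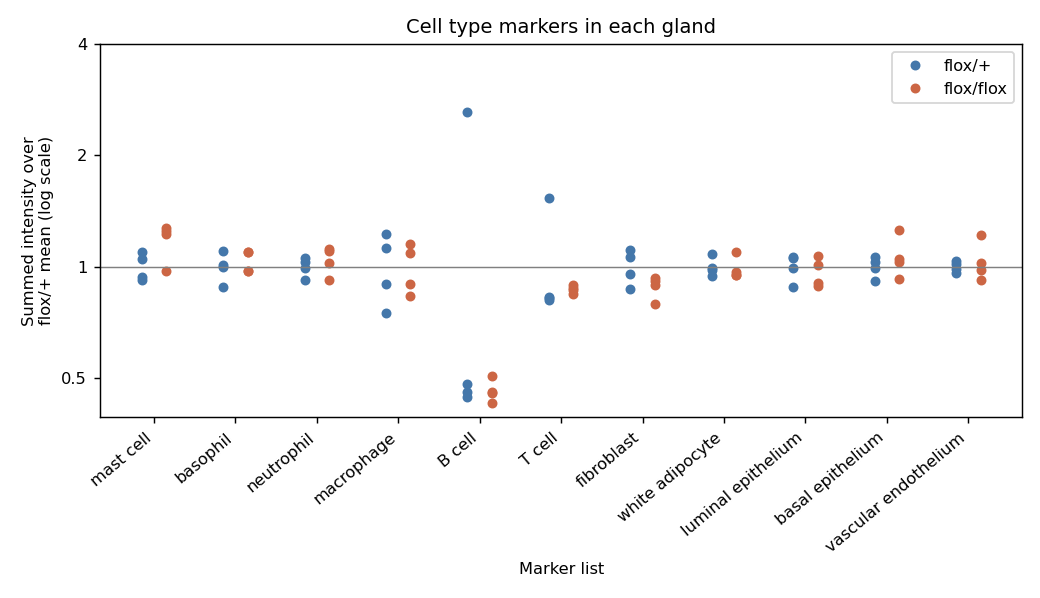
Summed intensity of each cell type marker list in every gland, divided by the mean of the 4 flox/+ glands, on a log scale; blue points are flox/+ and orange points flox/flox glands. Flox/+ replicate 2 stands apart in the B cell and T cell lists, and 3 of the 4 flox/flox glands are above all controls in the mast cell list.

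The genes most like Ccl11 and Ccr3 across the 8 glands, with the genotype means removed, were picked as the highest of 19937 correlations and are given as a description. For Ccl11 they were Celf3 (Pearson r = 0.98), Zfp770 (0.97), Dio2 (0.97), Shisal1 (0.97) and 1700001O22Rik (0.96). Dio2, which activates thyroid hormone in brown fat and other tissues, had a log2 difference of 0.68 between the genotypes, and the others lay between -0.25 and 0.09. For Ccr3 they were Cndp1 (0.98), Cebpe (0.96), Neb (0.96), Alad (0.95) and Mir532 (0.95), with differences of 0.17, -0.13, 0.03, 0.40 and 0.15. Cebpe, the granulocyte factor of the companion list, thus varied with Ccr3 once genotype means were removed, without a positive difference between the genotypes. The SD of the log2 values of Ccr3 was 0.46 in the flox/flox glands and 0.11 in the controls. Its correlations therefore rest mainly on the 4 flox/flox glands and say little about the controls.

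Sox9 itself, the check of the labels, read 366 to 448 in the controls and 287 to 356 in the flox/flox glands, lower in all 4 of the latter (log2 difference -0.33 ± 0.09 SE; exact permutation p = 0.0286; limma adjusted p = 0.256). Which exons of Sox9 are floxed is not stated, so the probe set may lie outside it, which limits this check. Tissue identifiers begin with R for the controls and with S or T for the flox/flox glands; what the letters stand for is not stated, and anything they mark cannot be told apart from genotype. The deposited medians of the arrays lay between 159 and 178.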

How the data were processed

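RNA of 8 mammary glands was hybridised to 8 arrays, 1 per gland. The authors deposited intensity values, not on a log scale; the submitters' processing notes name PLIER and Affymetrix Expression Console 1.0. How background was corrected and arrays were normalized is not given in the sources used here. This table holds 35557 probe sets and no detection calls. Each column matched a sample identifier, with 0 columns unmatched. The platform annotation gave the names: 21789 probe sets had 1 symbol, 1621 several and 12147 none. Those with 1 symbol entered the tests, and 21698 of them matched the RefSeq table of GRCm38.p6 by gene identifier. The brightest probe set stood for each of 19938 genes.

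Values were offset by 16, taken to log2 and quantile normalized, because the 10th, 50th or 90th percentile of the arrays spread by over 0.1. The comparison used limma 3.58.1 (R 4.3.3): lmFit, then eBayes, with Benjamini-Hochberg adjustment over all genes, a threshold of 0.05 and no pairing. Single members were also compared with a 2-sided exact permutation test over 70 assignments. On simulated arrays of 19938 genes, for this comparison, recovery was 72% for 50 genes with a log2 change of 0.5 and 98% for 50 with a change of 1. The same arrays held 50 genes with a change of 2 and 50 with a change of 4, of which 100% were recovered. Benjamini-Hochberg adjustment is less strict the more genes pass, and in the measured data only 8 passed. The 72% therefore does not carry over to the measured data. False calls made up 3.65% of the calls. The changed genes were drawn at random and given independent normal noise, so these shares do not hold for any given member. Ccl24, with a measured difference of 0.56, had a limma adjusted p of 0.152.

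The members and lists were chosen with earlier results of these data known, so their counts are a description and lists were not tested. The p values of single genes do not allow for that choice either. All members are named. Companion genes are named where the unadjusted p was under 0.05, or else the smallest p of their list; some others are named for their role or place on the chromosome, chosen after their values were seen. The 5 most alike genes were taken for Ccl11 and Ccr3. Alternatives tried were a block for the replicate number, deposited values, median centring, offsets of 1 and 64, a filter on low genes, all probe sets, the mean over probe sets, trend and robust options, array weights, a B cell covariate, and each array left out. The samples numbered alike had correlations of deviations of -0.20, 0.06, 0.21 and -0.09 over genes, so the numbers were not taken as pairs.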

Additional observations from a re-analysis of the deposited data

How the results depend on the processing

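Of the 10 members 0 had an adjusted p under 0.05 in limma under any of the alternatives, and the number with an unadjusted p under 0.05 lay between 3 and 5. The differences of Ccl11, Ccl24 and Ccr3 kept their sign and an unadjusted p under 0.05 in all alternatives run, with ranges of 0.52 to 0.77, 0.44 to 0.64 and 0.46 to 0.82. Their smallest adjusted p values were 0.114, 0.103 and 0.158. Il33 ranged from -0.69 to -0.33 and had an unadjusted p under 0.05 in 13 of 19 alternatives. With 1 array left out at a time Il5ra ranged from -0.0089 to 0.21 and Il13 from -0.15 to 0.026, both changing sign, and the other members kept theirs. Siglecf ranged from 0.07 to 0.27, Epx from 0.08 to 0.18, Prg2 from -0.23 to -0.13 and Il5 from 0.08 to 0.25.

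The count of all genes past the adjusted threshold, 8, moved to 18 with median centring, 4 with an offset of 1, 19 with an offset of 64, 3 without the lowest 1 in 3 genes, 1 over all probe sets, 17 with trend and robust options and 5 with the B cell covariate. With 1 array left out it ranged from 2 to 21. The cause was not tested. Ccr3, Epx, Prg2, Il5 and Il5ra were not tested without the lowest 1 in 3 genes, since they lie among them. With the replicate block 8 genes passed, and Ccl11, Ccl24 and Ccr3 had adjusted p values of 0.156, 0.234 and 0.209. Of the flox/flox samples 1 of 4 correlated best with the control of its own number.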
